A study of Mus musculus with 12 samples.

Results

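The 7 genes studied here, which encode proteins of the mitochondrial ribosome, were followed in myelinating oligodendrocytes of mice with floxed Lmna alleles, with and without Cre. They are Mrpl15, Mrpl30, Mrpl42, Mrpl44 and Mrpl54 of the large subunit and Mrps9 and Mrps14 of the small subunit. They were chosen by gene name, with earlier results of these data known. The set is the rows of the count table whose Entrez Gene ID belongs to an Mrpl or Mrps symbol, and makes up 7 of its 2398 genes. The table analysed here covers chromosome 1 and chromosome 10 up to 111.3 Mb, and RefSeq places 7 of its 78 protein-coding genes with such symbols in those 2 chromosomes. All 7 were measured well above the filter on low counts. Their fold changes all lay on the lower side in the knockout, by small amounts, and none passed the test.

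All animals carried the Ndrg1-EGFP reporter, whose GFP marks oligodendrocytes that make myelin, and were C57BL/6 mice with both Lmna alleles floxed. The control group, WT, had the genotype Cnp+/+;Lmnafl/fl. The knockout group, KO, had the genotype CnpCre/+;Lmnafl/fl, in which Cre is expressed from 1 Cnp allele, a gene of the oligodendrocyte lineage, so KO animals have Cre and 1 intact Cnp copy fewer, besides the change in Lmna. Age is given as postnatal day 60 in one field and as 8 weeks in another. Brain cells positive for GFP and negative for the dead-cell dye propidium iodide were sorted. Each genotype had 3 biological replicates with 2 libraries each, which were summed. Lmna and Cnp are not analysed here, so the deletion of Lmna was not checked. Of 16 oligodendrocyte marker genes, Adamts4 and Nfasc are in the table, and their summed level was high in every replicate. The other 14 are not analysed here.

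The mitochondrial ribosome is built in the matrix from RNAs of the mitochondrial genome and from proteins that are encoded in the nucleus, made in the cytosol and imported. Its only products are the few inner-membrane subunits of the respiratory chain and ATP synthase that the mitochondrial genome still encodes. Mature oligodendrocytes use mitochondria for the synthesis of myelin lipid precursors and also release lactate to axons. Mrpl15, Mrpl30, Mrps9 and Mrps14 belong to families shared with bacterial ribosomes, while Mrpl42 and Mrpl54 have no bacterial counterpart. Mrpl44 has a domain related to ribonuclease III. Inherited defects of human MRPL44 and MRPS14 cause cardiomyopathy with loss of respiratory chain activity.

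In GRCm38 (mm10) coordinates of RefSeq, Mrpl15 spans chromosome 1 from 4773198 to 4785750 on the minus strand. On the plus strand of the same chromosome, Mrpl30 spans 37890477 to 37898338, Mrps9 spans 42851233 to 42905683, Mrpl44 spans 79776018 to 79781445 and Mrps14 spans 160195215 to 160201186. Mrpl54 lies on chromosome 10 from 81264722 to 81266926, and Mrpl42 from 95480805 to 95501949, both on the minus strand. The members are spread over 2 chromosomes and no member overlaps another. Of these genes, 3 start beside a gene of the other strand in the GENCODE M21 annotation. The start of Mrpl30 lies 66 bases from that of Mitd1, a factor of the last step of cell division. The start of Mrpl54 lies 26 bases from that of Apba3, an adaptor protein. The first 126 bases of Mrpl44 overlap the start of Wdfy1, an endosomal protein. The use of strand in counting is not stated, so reads in those 126 bases may belong to either gene. Within the span of Mrpl15, GENCODE M21 also places Gm37144, an unverified transcript of 1150 bases, and within that of Mrps9 the small nucleolar RNA Gm23126 of 134 bases, and neither is analysed here.

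The RefSeq table of promoters (GRCm38.p6) held a window of 300 bases, 250 before and 50 after the start, for 5 of the 7 members. It had none for Mrpl15 and Mrpl54. Upstream sequences of 3 members are shown because 2 of them, Mrpl30 and Mrpl42, had KO replicates that lay entirely below WT, and the third, Mrpl44, starts within the region where Wdfy1 also starts. Each is the 250 bases before the start, at chr1:37890227-37890476 (plus strand), chr10:95501950-95502199 (minus strand) and chr1:79775768-79776017 (plus strand). Capitals mark matches to the motifs named in the next paragraph.
Mrpl30: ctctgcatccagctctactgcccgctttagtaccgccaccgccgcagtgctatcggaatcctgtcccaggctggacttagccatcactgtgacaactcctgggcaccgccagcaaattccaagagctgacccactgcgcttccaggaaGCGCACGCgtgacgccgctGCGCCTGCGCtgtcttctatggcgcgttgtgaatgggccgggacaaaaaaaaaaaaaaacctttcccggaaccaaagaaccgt
Mrpl42: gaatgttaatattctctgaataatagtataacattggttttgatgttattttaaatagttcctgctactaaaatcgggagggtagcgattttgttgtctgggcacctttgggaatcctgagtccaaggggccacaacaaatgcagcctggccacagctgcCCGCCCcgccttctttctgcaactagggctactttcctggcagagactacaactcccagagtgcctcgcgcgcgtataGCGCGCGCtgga
Mrpl44: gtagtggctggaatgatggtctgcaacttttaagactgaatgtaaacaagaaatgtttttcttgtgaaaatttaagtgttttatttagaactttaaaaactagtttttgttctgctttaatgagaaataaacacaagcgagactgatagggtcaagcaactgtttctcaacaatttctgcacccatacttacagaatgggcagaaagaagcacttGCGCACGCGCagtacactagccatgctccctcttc

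The windows were searched on both strands, overlaps allowed, for short forms of sites of factors known for genes of mitochondria and growth. GCATGCGC, a form of the NRF1 site, was in 0 of the 5 member windows and in 2.71% of the 32851 windows of the table. CCGGAAG, the core of sites of ETS factors such as GABPA, was in 0 of 5 and in 8.86% of all windows. GGGCGG, the SP1 box, was in the windows of Mrpl42, Mrps9 and Mrps14, and in 35.7% of all windows. AAGATGGCG, a form of the YY1 site, was in the window of Mrpl42 and in 1.4% of all windows. It lies 27 to 35 bases after the start, within the 30 bases at chr10:95501900-95501929, minus strand, where it is shown in capitals that run on into an overlapping match of the looser form below.
Mrpl42 from 20 bases after the start: ttgaagcAAGATGGCGAGCGCgcggtgagt

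A looser form of the NRF1 site, GCGCNNGC, was searched after the sequences had been seen. It was in the windows of all 5 members and in 23.4% of all windows. Because the search came after the member sequences were seen, the comparison of these shares is no test of enrichment. In Mrpl30 and Mrpl44 every stretch in capitals above is this form, read on one strand or on both. GC content was 42.3% in the window of Mrpl44 and between 51.3% and 59.3% in the other 4, where the median over all windows was 52.7%. A match is a description of letters and not of binding.

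A library held 1838676 to 3060812 counts in the analysed genes and a replicate 3694551 to 6093336, which is part of each library and not its full depth. The 2 libraries of a replicate agreed closely, with a chi-square per degree of freedom of 1.00 to 1.06 over genes (chi-square p from 0.0594 to 0.486). For the members the libraries of a pair differed by a median of 3.2%, and by 18.5% at most, for Mrpl44 in KO replicate 2. The summed counts of a member in a replicate lay between 618 (Mrpl44, KO replicate 1) and 3528 (Mrpl42, KO replicate 2). Levels below are CPM, a gene's share of the counts in the analysed genes on a common scale, corrected by the TMM factors of edgeR.

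Among the large subunit genes, Mrpl42 stood at 654, 709.7 and 633 CPM in WT replicates 1, 2 and 3 and at 576, 559 and 588 CPM in KO replicates 1, 2 and 3. Every KO replicate lay below every WT replicate. The means were 666 ± 39.7 CPM in WT against 574 ± 14.6 CPM in KO (SD, n = 3), with a fitted level 13.8% lower in KO. Mrpl15 stood at 566, 502 and 504 CPM in WT, against 481, 432 and 415 CPM in KO, with means of 524 ± 36.2 and 443 ± 34.1 CPM. It had the largest fitted difference of the 7 members, 15.5% lower in KO, and its groups did not overlap. Mrpl30 stood at 517, 504 and 479 CPM in WT, against 465, 418 and 469 CPM in KO. Its groups did not overlap either, but only by the 9.57 CPM between WT replicate 3 and KO replicate 3, and its means were 499.9 ± 19.4 and 451 ± 28.6 CPM.

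The other large subunit genes had overlapping groups. Mrpl54 stood at 467, 404 and 404 CPM in WT, against 379.7, 422 and 374 CPM in KO, with KO replicate 2 above 2 of the WT replicates. Mrpl44 stood at 187, 181 and 153 CPM in WT, against 176, 153 and 156 CPM in KO, with WT replicate 3 lower than every KO replicate. Of the small subunit genes, Mrps14 stood at 543, 494 and 463 CPM in WT, against 522, 414 and 417 CPM in KO. KO replicate 1 lay among the WT replicates, while the other 2 lay below them. Mrps9 stood at 280.3, 249.7 and 301 CPM in WT, against 265, 247 and 251 CPM in KO, where WT replicate 2 lay inside the range of KO.

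**Figure D1:**
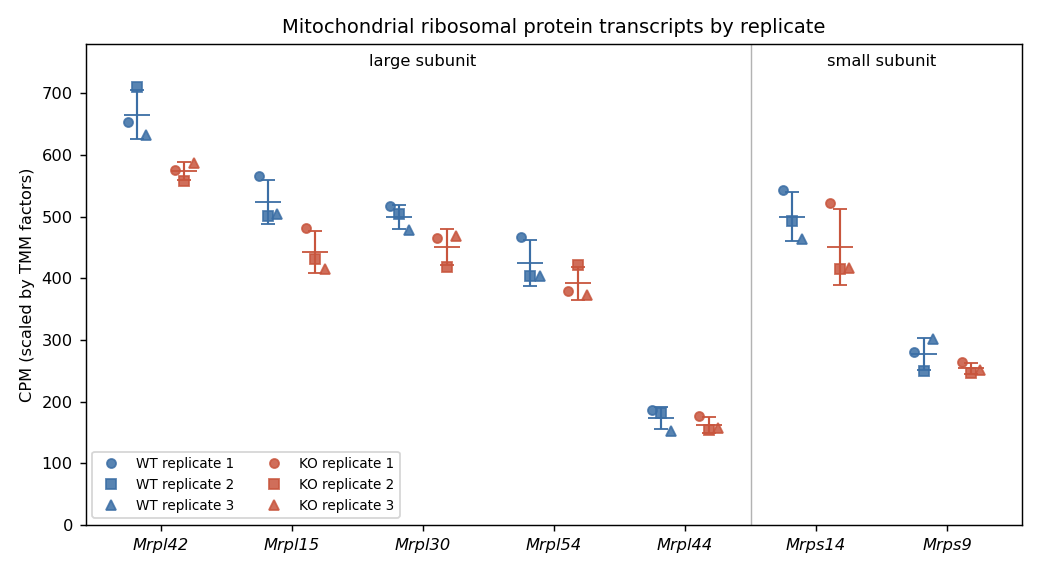
Level in CPM (linear axis from 0) of the 7 members in each replicate, WT in blue and KO in red, with the mean as a horizontal bar and the SD as an error bar (n = 3). The KO points of Mrpl42, Mrpl15 and Mrpl30 lie below all their WT points, and those of the other 4 members overlap with WT.

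Levels were compared between genes only per length, as CPM per kb of the longest GENCODE M21 transcript, over the 6 replicates. Mrpl54, with a transcript of 604 bases, stood highest at 676 ± 56.1 CPM per kb (SD, n = 6). Mrpl30 followed at 270.5 ± 19.8 CPM per kb, and then Mrpl42 at 189 ± 17.3. The replicate ranges of these 3 genes did not overlap. Mrps14, at 159 ± 17.9 CPM per kb, overlapped with Mrpl42. Below Mrps14 and separate from it came Mrpl44 at 118 ± 10.8, Mrps9 at 109.7 ± 8.80 and Mrpl15 at 105 ± 11.8 CPM per kb, whose replicate ranges overlapped one another.

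This order depends on which transcript the cells use, and that is not known from counts per gene. With the longest protein-coding transcript, a choice made after seeing the data, the length of Mrpl42 falls from 3277 to 666 bases and its level becomes 931 ± 85.3 CPM per kb, the highest of the 7. The length of Mrps9 falls from 2421 to 1418 bases and its level becomes 187 ± 15.0 CPM per kb, with a mean above that of Mrps14 and overlapping ranges. The length of Mrpl15 changes from 4600 to 4203 bases, and it keeps the lowest mean, at 115 ± 13 CPM per kb, with a range that overlaps that of Mrpl44. The lengths of Mrpl30, Mrpl44, Mrpl54 and Mrps14 are the same under both choices.

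**Figure D2:**
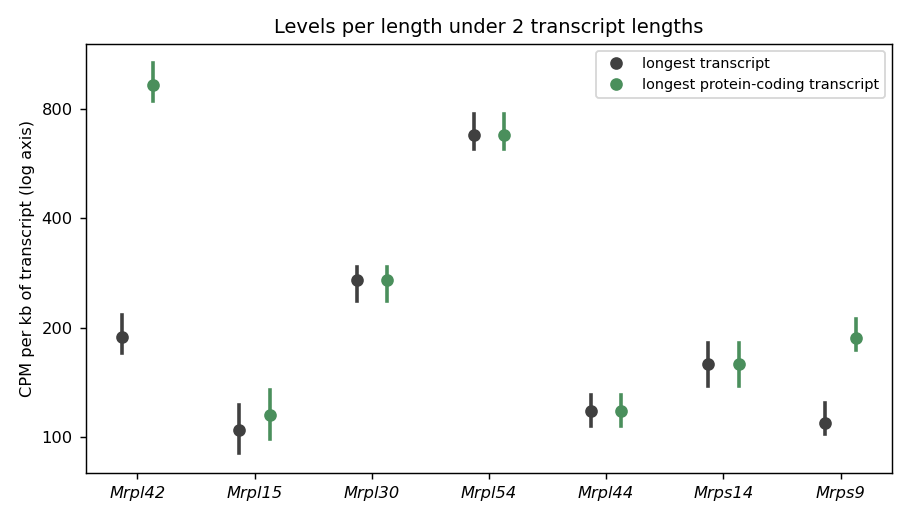
Mean level per kb of transcript (log axis) for each member, with a line from the lowest to the highest of the 6 replicates, under the longest transcript (grey) and the longest protein-coding transcript (green). Mrpl42 moves from 189 to 931 CPM per kb and Mrps9 from 109.7 to 187, while Mrpl54 stands at 676 under both.

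KO was compared with WT to ask whether the transcripts of these genes differ when Cre is expressed from a Cnp allele on the floxed Lmna background. In edgeR's quasi-likelihood test on the 6 replicates, 0 of the 7 members passed at an adjusted p under 0.05, as did 0% of the 1484 genes tested. At an unadjusted p under 0.05 the test gave 59 of the 1484 genes and 0 of the members. DESeq2 on the same replicates called 7 genes, 0.354% of the 1977 with an adjusted p, and none of them was a member. The adjusted p in edgeR was 0.994 for each of the 7 members.

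The log2 fold changes, KO minus WT, were all below 0. They were -0.24 ± 0.12 (SE) for Mrpl15, with a 95% interval from -0.51 to 0.02, and -0.21 ± 0.10 for Mrpl42, with an interval from -0.45 to 0.02. These were the smallest unadjusted p values of the members in edgeR, 0.0664 and 0.0709. Mrpl30 and Mrps14 both came to -0.15, with SE of 0.11 and 0.13. Mrps9 had -0.12 ± 0.12, Mrpl54 -0.12 ± 0.12 and Mrpl44 -0.10 ± 0.15. Every interval included 0, and over the 7 members the bounds ran from -0.51 (Mrpl15) to 0.24 (Mrpl44).

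The median log2 fold change of the 7 members was -0.15, against -0.01 over all 1484 genes tested. Below 0 were 7 of 7 members, where 50.5% of all genes tested were. Of the 378 other genes tested whose mean CPM lies between those of Mrpl44 and Mrpl42, 61.1% were below 0, with a median of -0.04. All KO replicates lay below all WT replicates in 3 of 7 members, in 4.04% of all genes tested and in 21 of those 378. At an unadjusted p under 0.05 in edgeR and lower in KO there were 0 members, 1.28% of all genes tested and 7 of those 378. The members share the same 6 replicates and the same scaling, so they are not 7 independent observations. The set was also chosen with earlier results of these data known.

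**Figure D3:**
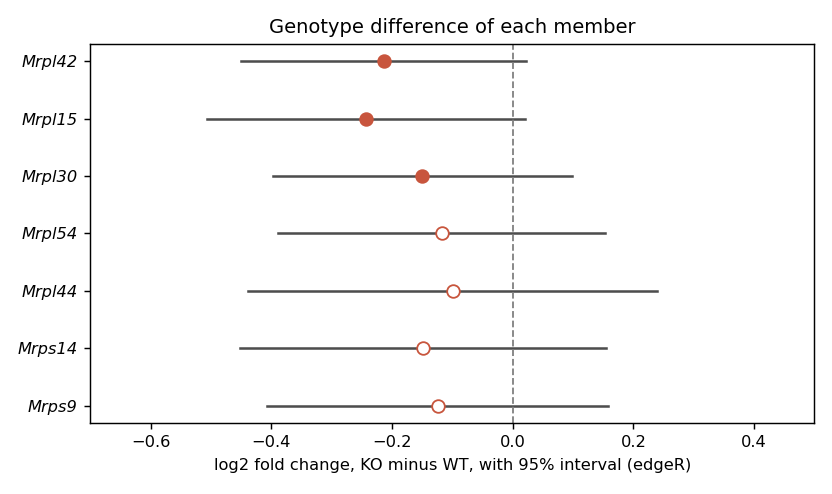
Log2 fold change of each member, KO minus WT, with its 95% interval from edgeR. Filled points mark Mrpl42, Mrpl15 and Mrpl30, whose groups do not overlap, and every interval crosses the dashed line at 0.

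Added together, the 7 members stood at 3214, 3044 and 2936 CPM in WT, against 2864, 2645 and 2670 CPM in KO. No KO replicate reached the lowest WT replicate, and the KO mean of 2726 ± 120.3 CPM was 11.0% below the WT mean of 3065 ± 140 CPM. The 5 large subunit genes summed to 2288 ± 109.5 CPM in WT against 2021 ± 49.9 CPM in KO, also without overlap. Both sums hold Mrpl42, Mrpl15 and Mrpl30, whose own groups did not overlap, so neither sum is a separate observation. Among single genes tested, 4.04% had all KO replicates below all WT replicates. The 2 small subunit genes summed to 777 ± 41.7 CPM in WT against 705 ± 70.7 CPM in KO, with overlap. The ratio of large to small subunit transcripts was 2.95 ± 0.13 in WT and 2.88 ± 0.21 in KO, and ranged from 2.64 in KO replicate 1 to 3.1 in WT replicate 2. This ratio differed more within each genotype than between the genotype means.

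The members deviated together in some replicates and apart in others. In WT replicate 1 all 7 members stood above their own mean over the 6 replicates, by a median of 0.16 on the log2 scale, and 5 of them had their highest value there. The exceptions were Mrpl42, which was highest in WT replicate 2, and Mrps9, which was highest in WT replicate 3. In KO replicate 3 all 7 members stood below their own mean, by a median deviation of -0.10. In KO replicate 2 the median deviation was -0.15 and only Mrpl54 stood above its mean, by 0.05. WT replicate 2, WT replicate 3 and KO replicate 1 were mixed, with 5, 4 and 3 members above their mean. Deviations from the mean over the 6 replicates include the genotype difference. Against the mean of their own genotype, 6, 3 and 1 of the 7 members were above it in WT replicates 1, 2 and 3. In KO replicates 1, 2 and 3 the counts were 6, 1 and 2. Such counts were not made over all genes tested, so a shift shared with other genes is not separated here. Both kinds of deviation depend on the scaling of each replicate. Without TMM factors the members summed to 3259, 2949 and 3074 CPM in WT, against 2723, 2743 and 2633 CPM in KO, so that KO replicate 2 had the highest KO sum and not the lowest, and the genotypes still did not overlap.

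The SD of log2 CPM within genotype had a median of 0.10 over the 7 members, from 0.07 in Mrpl42 to 0.16 in Mrps14. Over the 960 genes tested with at least 50 CPM, a bar that all members pass, the median was 0.18. That set reaches down to lower levels than those of the members. The biological coefficient of variation fitted by edgeR differed less, with a median of 0.142 for the members and 0.164 for those 960 genes. The genotype differences of the members, at -0.10 to -0.24, came to between 0.739 (Mrpl44) and 3.26 (Mrpl42) times the gene's own SD.

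**Figure D4:**
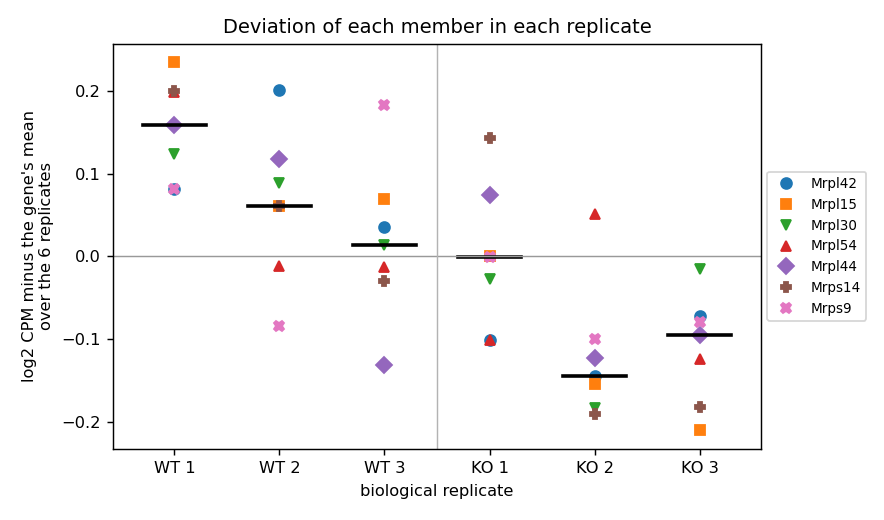
Log2 CPM of each member minus its own mean over the 6 replicates, by replicate, with a black bar at the median of the 7. The medians run from 0.16 in WT replicate 1 to -0.15 in KO replicate 2. All replicates except WT replicate 1 and KO replicate 3 hold members on both sides of 0.

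The 3 genes that start beside a member were measured too. Mitd1, which starts 66 bases from Mrpl30, stood at 132 ± 19.9 CPM in WT against 110.5 ± 16.2 CPM in KO (SD, n = 3), with a log2 fold change of -0.26 ± 0.19 (SE) and overlapping groups. Apba3, which starts 26 bases from Mrpl54, stood at 659 ± 25.9 CPM in WT against 667 ± 37.1 CPM in KO, with 0.02 ± 0.10. Wdfy1, which overlaps the start of Mrpl44, stood at 1069, 223 and 261 CPM in WT, against 248, 949 and 314 CPM in KO. Its high replicates were WT replicate 1 and KO replicate 2. Mrpl44 was at its highest in the first of these and near its lowest in the second. None of these 3 neighbours passed in edgeR (adjusted p = 0.994 for each).

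Other genes of mitochondrial protein synthesis were described by list. Of the factors that assemble the mitochondrial ribosome or modify its RNA, 5 were tested, 0 were called and 4 had a log2 fold change below 0, with a median of -0.13, which ranged from -0.23 without WT replicate 1 to -0.04 without WT replicate 3. Fastkd2, an RNA-binding protein needed for the large ribosomal RNA of mitochondria, stood at 239.9 ± 60.4 CPM in WT against 172 ± 6.21 CPM in KO (SD, n = 3). Its log2 fold change was -0.48 ± 0.18 (SE), with an unadjusted p in edgeR of 0.0302 and an adjusted p of 0.992. All KO replicates of Fastkd2 lay below WT, as in 4.04% of all genes tested. WT replicates 1, 2 and 3 stood at 189, 307 and 224 CPM, against 170, 179 and 168 CPM in KO. Rmnd1, which anchors mitochondrial ribosomes near the inner membrane, stood at 612 ± 175 CPM in WT against 521 ± 140 CPM in KO, with -0.23 ± 0.24. Mterf4, a partner of the methyltransferase of the small ribosomal RNA, had -0.10 ± 0.15, and Mtres1, an RNA-binding factor, -0.13 ± 0.16.

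Of the translation factors and mitochondrial aminoacyl-tRNA synthetases, 6 were tested, 0 were called and 5 had a log2 fold change below 0, with a median of -0.07, which ranged from -0.18 without KO replicate 3 to 0.02 without WT replicate 3. Rmnd1 belongs to this list as well. Iars2, the isoleucyl-tRNA synthetase, stood at 491 ± 74.9 CPM in WT against 458 ± 58.4 CPM in KO. Mars2, the methionyl-tRNA synthetase, stood at 198 ± 7.82 CPM in WT against 208 ± 10.7 CPM in KO. The groups of both genes overlapped.

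Genes of mitochondrial transcription and RNA handling had 7 tested, 0 called and 5 below 0, with a median of -0.06, which ranged from -0.11 without WT replicate 1 to 0.00 without WT replicate 3. Angel2, a phosphatase of RNA ends, stood at 714 CPM in both genotypes (SD 51.0 in WT and 43.1 in KO). Polrmt, the mitochondrial RNA polymerase, stood at 549.8 ± 62.3 and 528 ± 77.3 CPM, and Tfam, which packages mitochondrial DNA, at 355 ± 29.9 and 349 ± 33.3 CPM. Osgepl1, which modifies mitochondrial tRNAs, stood at 184 ± 23.8 CPM in WT against 199 ± 13.5 CPM in KO. Of the regulators of mitochondrial biogenesis 4 were tested, all below 0 and 0 called, with a median of -0.12, which ranged from -0.18 without KO replicate 3 to -0.08 without WT replicate 2. They were Tfam at -0.02 ± 0.13, Tfb2m at -0.14 ± 0.14, Creb1 at -0.10 ± 0.17 and Sirt1 at -0.40 ± 0.34 (log2 fold change ± SE). Tfam and Tfb2m also belong to the list of transcription and RNA handling, so the lists are not separate. Of all genes tested, 50.5% were below 0.

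The respiratory chain subunits encoded in the nucleus, which join the products of the mitochondrial ribosome, had 9 tested, 0 called and 5 below 0, with a median of -0.05, which was -0.09 without WT replicate 3 and 0.01 without WT replicate 2, without KO replicate 2 or without KO replicate 3. Of these, Ndufs7 had -0.05 ± 0.11, Cox5b 0.02 ± 0.10 and Ndufa10 0.04 ± 0.12 (log2 fold change ± SE). The proteins of the cytosolic ribosome had 7 tested, 0 called and 7 below 0, with a median of -0.09, which ranged from -0.16 without WT replicate 2 to -0.02 without KO replicate 3. Rpl7 had -0.02 ± 0.12, Rpl37a -0.04 ± 0.15, Rps15 -0.04 ± 0.13 and Rpl31 -0.09 ± 0.12. Cytosolic ribosomal protein genes have many processed copies in the genome, so their counts are uncertain. Of the mitochondrial chaperones, import factors and carriers 7 were tested, 0 were called and 4 were below 0, with a median of -0.06, which ranged from -0.13 without WT replicate 3 to 0.02 without KO replicate 2. Hspd1, the mitochondrial chaperonin, had -0.06 ± 0.17, Timm13 0.00 ± 0.12 and Slc25a3, the phosphate carrier, 0.16 ± 0.12.

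**Figure D5:**
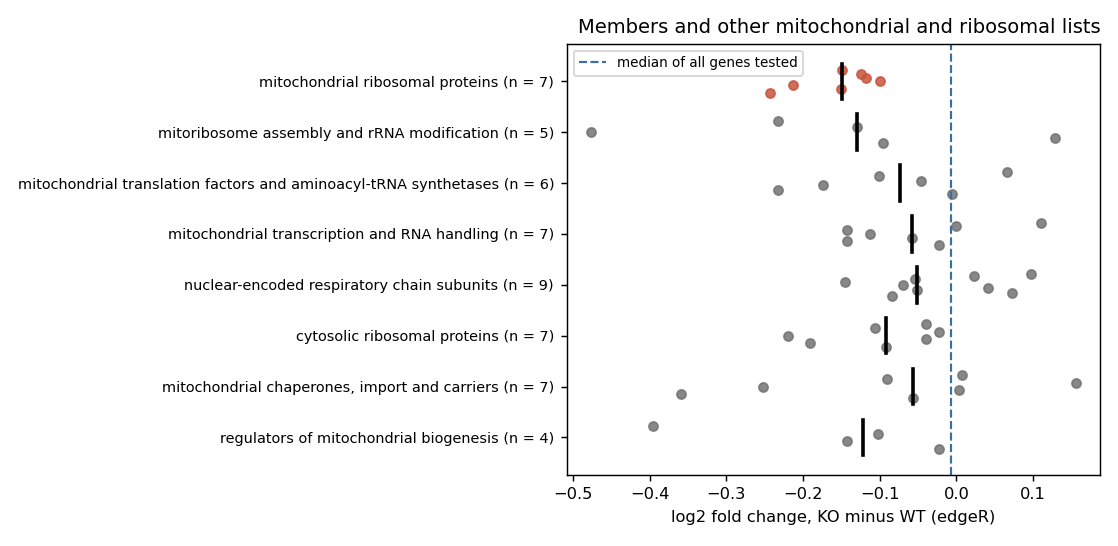
Log2 fold change, KO minus WT, of every tested gene in each list (points), with the list's median as a black bar and the median of all genes tested as a dashed line. The 7 mitochondrial ribosomal protein genes (red) lie between -0.24 and -0.10, all 7 cytosolic ribosomal protein genes and all 4 biogenesis regulators also lie below 0, and the other 5 lists hold genes on both sides.

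The genes whose pattern over the 6 replicates lay closest to the sum of the 7 members were found by the root mean square difference of their centred log2 CPM, among 936 other genes with at least 50 CPM. The closest was Pdcd5-ps, at 0.03, a processed copy of Pdcd5 whose reads may come from the parent gene. Zfand2b, a protein of proteasome-linked quality control, and Dnpep, an aspartyl aminopeptidase, followed at 0.03 and 0.04. Hdac4, a histone deacetylase, and Tab2, an adaptor of the TAK1 kinase, were each at 0.04. The median over the 936 genes was 0.19. The members themselves, which contribute to the sum, lay between 0.05 (Mrpl30) and 0.10 (Mrps9).

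Markers of other cells were also read in the sorted cells. The 2 tested markers of microglia and macrophages, of 14 in the list, summed to between 41.5 and 85.5 CPM in WT against between 47.0 and 242 CPM in KO. The 2 astrocyte markers of 9 summed to 271 to 661 CPM in WT against 435 to 924 CPM in KO, and the 2 neuronal markers of 10 to 7.03 to 247 CPM in WT against 10.5 to 46.9 CPM in KO. The 5 markers of mural cells and fibroblasts of 11 summed to 83.6 to 475 CPM in WT against 250.4 to 639 CPM in KO. Progenitor markers, 2 of 7, summed to 0.497 to 36.6 CPM in WT against 12.2 to 95.6 CPM in KO, and the choroid plexus marker Kcnj13 stood at 131 CPM in WT replicate 1 and at no more than 16.2 CPM elsewhere. The 8 listed endothelial markers are not analysed here.

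The sum of Adamts4 and Nfasc was 10321 to 11902 CPM in WT against 14783 to 17097 CPM in KO, without overlap and higher in KO, where the members were lower. All KO replicates lay above all WT replicates in 66 of the 1484 genes tested. Neither Adamts4 nor Nfasc was called in edgeR. Only their sum is given here, so the share of each gene in the difference is not shown. Immediate early genes, which respond to tissue dissociation, had 4 in the table and summed to 1606, 285 and 3564 CPM in WT, against 393, 2426 and 1208 CPM in KO. Within each genotype the replicate with the highest sum of these genes, WT replicate 3 and KO replicate 2, had the lowest sum of the members, at 2936 and 2645 CPM. Without TMM factors the lowest sums of the members were instead in WT replicate 2 and KO replicate 3. The part of other cell types, of dissociation and of the Adamts4 and Nfasc levels in the results on the members was not tested. In sorted populations such as these, fewer cells of a type and less RNA per cell cannot be told apart.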

How the data were processed

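The deposited table holds raw read counts per gene and library, made by the authors from 50 bp single-end reads, per the labels' protocols. The submitters' processing notes name mm10, featureCounts, HISAT2, DESeq2 1.38.1, SAMtools 1.4.1, CASAVA 1.8.2, fastp and FastQC, with no order or role. Their parameters, the annotation and the use of strand were not given in the sources used here. The table had 2398 complete lines, and 1 that stopped early was left out. Gene IDs were matched to RefSeq GRCm38.p6 (2226 matched, 172 did not).

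Counts of the 2 libraries of a replicate were summed. The KO and WT replicates entered edgeR 4.0.16 in R 4.3.3 (TMM factors from 0.951 to 1.05, filterByExpr, robust quasi-likelihood fit, Benjamini-Hochberg over all 1484 genes tested, threshold 0.05). SE is the log2 fold change over the square root of F. With 3 against 3, an exact permutation test cannot give a two-sided p under 0.1. The fits were tested on simulated counts. The looser NRF1 form was searched after the sequences were seen. Transcript lengths and strands come from GENCODE M21.

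The alternatives were other size factors and filters, DESeq2 1.42.0, limma-voom 3.58.1, a replicate block, single libraries, leaving out each replicate, CPM without TMM factors, and another transcript length. Named genes were the members, up to 4 genes of highest CPM in each list, neighbours whose start lies within 1000 bases on the other strand or that overlap, and the 5 genes closest in pattern; some genes that this rule names are not reported here, and Hspe1, Timm17a and Rpl6l were named after their values were seen. The members and lists were chosen with earlier results of these data known.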

Additional observations from a re-analysis of the deposited data

How the results depend on the processing

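The count of 0 genes called in edgeR held under the other size factors, both other filters, either library alone, limma-voom and each of the 6 fits without a replicate, and became 7 with DESeq2 (6 higher and 1 lower in KO); the cause was not tested. At an unadjusted p under 0.05 the fits without a replicate gave 34 to 86 genes. All 7 members kept a log2 fold change below 0 and an adjusted p above the threshold in each of the 14 alternatives. Over the fits without a replicate the value ranged from -0.31 to -0.19 for Mrpl15, from -0.24 to -0.16 for Mrpl42, from -0.18 to -0.09 for Mrpl30, from -0.27 to -0.09 for Mrps14, from -0.18 to -0.05 for Mrps9, from -0.17 to -0.05 for Mrpl54 and from -0.18 to -0.05 for Mrpl44, and the median of the members from -0.18 without WT replicate 3 to -0.10 without KO replicate 2. Of the 7 other lists, the medians of assembly factors, biogenesis regulators and cytosolic ribosomal proteins stayed below 0 in each alternative, and those of the other 4 came to above 0 without 1 replicate, to at most 0.02. Over these 7 lists the fits without a replicate gave medians from -0.23 to 0.02. With the second library alone Mrpl44 came to -0.03. Without KO replicate 1, Mrpl15 had an unadjusted p of 0.0474 in edgeR with an adjusted p of 0.995 (range 0.879 to 0.9998 over its alternatives), the only member below 0.05 unadjusted in any alternative.

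Same-numbered replicates deviated with correlations of -0.0032, -0.30 and 0.14 across genes, so the numbers were not taken to pair the samples. With the replicate block, 0 genes were called (49 at an unadjusted p under 0.05) and the median of the members was -0.15. Without TMM factors the summed CPM of the members ran from 2633 to 3259 and not from 2645 to 3214. The SE of a member's log2 fold change lay between 0.10 and 0.15. Counting alone gives a member's count in a replicate a relative error of at most 4.02%, below the biological coefficients of variation of 0.13 to 0.18 fitted for the members.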

Other observations

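Besides the genes of highest level, the list of mitochondrial chaperones, import factors and carriers held 2 genes, of 7 tested, whose KO replicates all lay below WT, as in 4.04% of all genes tested, both picked after their values were seen. Hspe1, the partner of the chaperonin Hspd1, had a log2 fold change of -0.36 ± 0.10 (SE) and an unadjusted p of 0.00759 in edgeR with an adjusted p of 0.927, while Hspd1, which shares its promoter region, had -0.06 ± 0.17. Timm17a, a subunit of the inner membrane import channel, had -0.25 ± 0.13 with 1107 ± 171 CPM in WT against 929 ± 8.61 CPM in KO (SD, n = 3). Neither passed the adjusted threshold. In the list of cytosolic ribosomal proteins the lowest value belonged to Rpl6l, at -0.22 ± 0.14, a copy of a ribosomal protein gene whose reads may come from its parent.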
